A study of Arabidopsis thaliana with 38 samples.

Results

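The control lines of a study of Arabidopsis thaliana seedlings with reduced HSP90 were compared across the 3 microarray experiments in which they were grown and hybridised. They were chosen by line alone and comprised 11 of the 35 biological samples, 12 of the 38 arrays and 4 of the 13 lines. HSP90 is a cytosolic chaperone that holds signalling proteins in an active conformation, and the study lowered it by RNA interference (RNAi) or by T-DNA insertion and read the seedling transcriptome on Affymetrix ATH-1 arrays. Every sample was a pool of 10 seedlings of the Col-0 accession, 14 days old, grown in long days on GM medium and harvested without the roots.

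Experiment 1 held Control-2 (2 biological samples, 1 of them hybridised on 2 arrays that were averaged), experiment 2 held Control-1 and Control-3 (3 samples each), and experiment 3 held Col-0 of stock CS60000 (3 samples). Control-1, Control-2 and Control-3 each descended from a single transformation event and carried the vector of the RNAi lines with a GFP fragment, a 35S promoter and a kanamycin resistance cassette but no HSP90 sequence. Their inserts had been mapped to the 3′ untranslated region of AT4G10790 in Control-1, 3′ of AT1G26330 in Control-2 and 5′ of AT1G25570 in Control-3. Col-0 carried no transgene, and the transgenic lines came from another laboratory stock of Col-0. Only experiment 2 held more than 1 control line, so the effect of line and the effect of experiment, which includes growth, harvest, RNA preparation and hybridisation, cannot be told apart across experiments. Nothing in the labels says whether replicate pools were grown on separate occasions, so the p-values measure the spread between these pools.

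Seedling transcripts respond within hours to light, temperature, time of day, oxygen and mechanical handling. Photosynthesis is encoded in both the nucleus and the chloroplast: the chloroplast genome holds core photosystem subunits in genes that are transcribed together as long units and then cut, while light-harvesting antenna proteins are nuclear. Mitochondria have a small genome of their own with respiratory chain genes. The labelling protocol primed cDNA at poly(A) tails, which nuclear messages carry and organelle transcripts mostly lack. In pooled aerial tissue, fewer cells of a type and less RNA per cell cannot be told apart.

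The values were MAS5 signals on a linear scale, and differences are given as log2(signal + 16), so that a difference of 1 is a doubling for bright probe sets and the change of dim ones is understated. Of 22746 probe sets, 14787 passed the filter on dim signals. A probe set was called when its limma p, adjusted over those 14787 by Benjamini-Hochberg, was below 0.05. Trimmed mean signals were the same on all arrays (499.7 to 499.8), while median signals were 206 to 221 in experiment 1, 171 to 184 in experiment 2 and 192 to 201 in experiment 3.

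The transcript profiles of the control samples grouped by experiment, which in experiments 1 and 3 is also a grouping by line. Correlations between samples ranged from 0.973 to 0.988 within a line, from 0.979 to 0.987 between Control-1 and Control-3, and from 0.922 to 0.951 between experiments. All 11 samples were most like another sample of their own line. The first principal component held 38.7% of the variance and the second 27.9%, and together they separated the 3 experiments. Per probe set, the median share of the sum of squares was 60.3% between experiments, 2.69% between the lines of experiment 2 and 32.9% among samples of a line. For 879 probe sets, more than 90% lay between experiments. The shares between experiments, between lines and among samples rest on 2, 1 and 7 degrees of freedom. Differences between lines of different experiments count as between experiments in this split. The F-test for any difference among the experiments called 8396 probe sets (56.8%).

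**Figure D1:**
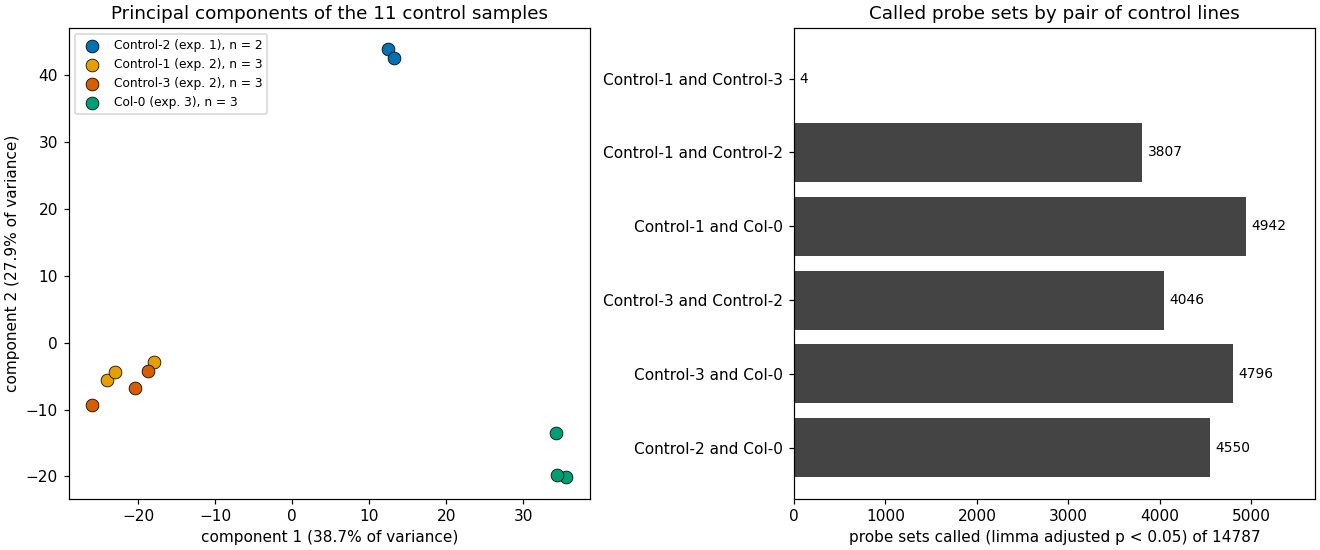
Left, the first and second principal components of the 11 control samples, 1 point per sample coloured by line; right, bars of the number of probe sets called between each pair of control lines. Control-1 and Control-3, which shared experiment 2, lie together and differ in 4 called probe sets, while pairs from different experiments differ in 3807 to 4942.

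Control lines grown together hardly differed. Control-3 against Control-1 gave 4 called probe sets (0.0271% of those tested), 2 higher and 2 lower, and 1124 at an unadjusted p below 0.05. The median size of a difference was 0.11 on the log2 scale. Between lines of different experiments, the pairwise fits called 3807 to 4942 probe sets with a median size of 0.27 to 0.29. Within the combined comparisons, Control-2 differed from Control-1 and Control-3 in 4869 probe sets (32.9%), 3131 higher (21.2%) and 1738 lower (11.8%). Col-0 differed from Control-1 and Control-3 in 6006 (40.6%), 3602 higher (24.4%) and 2404 lower (16.3%). Col-0 differed from Control-2 in 4550 (30.8%), 2105 higher (14.2%) and 2445 lower (16.5%). Changes of at least 2-fold made up 626, 559 and 836 of these calls, against 2 within experiment 2. Whether called or not, 643, 566 and 874 probe sets differed at least 2-fold, against 34 within experiment 2.

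The balance of higher and lower calls depended on scaling. After quantile normalization the split became 1927 higher and 2040 lower for Control-2 against Control-1 and Control-3, 2877 and 2779 for Col-0 against Control-1 and Control-3, and 2549 and 2421 for Col-0 against Control-2. The median difference over all tested probe sets was 0.10, 0.08 and -0.02 before that normalization. These 3 comparisons share samples and are given side by side, with no reading of their overlap.

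Most differences between experiments were also present in lines that were not controls. The HSP90-reduced lines of the same experiments (RNAi-A1 and RNAi-A3 in experiment 1, RNAi-A2, RNAi-B1 and RNAi-C1 in experiment 2, and HSP90.3-TDNA, HSP90.1-TDNA and HSP90.2-TDNA in experiment 3) comprised 21 separate samples and were fitted on their own. Of the 4869 calls of Control-2 against experiment 2, 4704 (96.6%) had the same sign there, against 81.4% of all tested probe sets. The test called 3382 of them (69.5%, and 57.6% of the calls among the other lines), and 6 were called in the opposite direction. For Col-0 against experiment 2 the same sign was found for 5821 of 6006 (96.9%, against 83% of all tested), and 4574 were also called (76.2%, and 63.4% of the other lines' calls), with 15 opposite. For Col-0 against Control-2 it was 4475 of 4550 (98.4%, against 82.9%), and 3680 were also called (80.9%, and 55.5%), with 3 opposite. Across the 14787 probe sets, the differences in the control lines and in the other lines correlated at 0.821, 0.838 and 0.858, as a description over genes that are not independent. Of all probe sets tested in the other lines, 24% were higher and 15.7% lower in experiment 1 than in experiment 2, 27.4% higher and 21.4% lower in experiment 3 than in experiment 2, and 20.4% higher and 24.4% lower in experiment 3 than in experiment 1. These lines belonged to the same experiments as their controls but differed from them in genotype. They also repeated the split of the controls by vector and stock. The RNAi lines of experiments 1 and 2 shared the vector backbone and the laboratory Col-0 stock of their controls. The T-DNA lines of experiment 3, like Col-0, lacked that vector and came from a stock center. Experiment, vector and stock thus cannot be told apart in these lines for the comparisons with experiment 3.

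**Figure D2:**
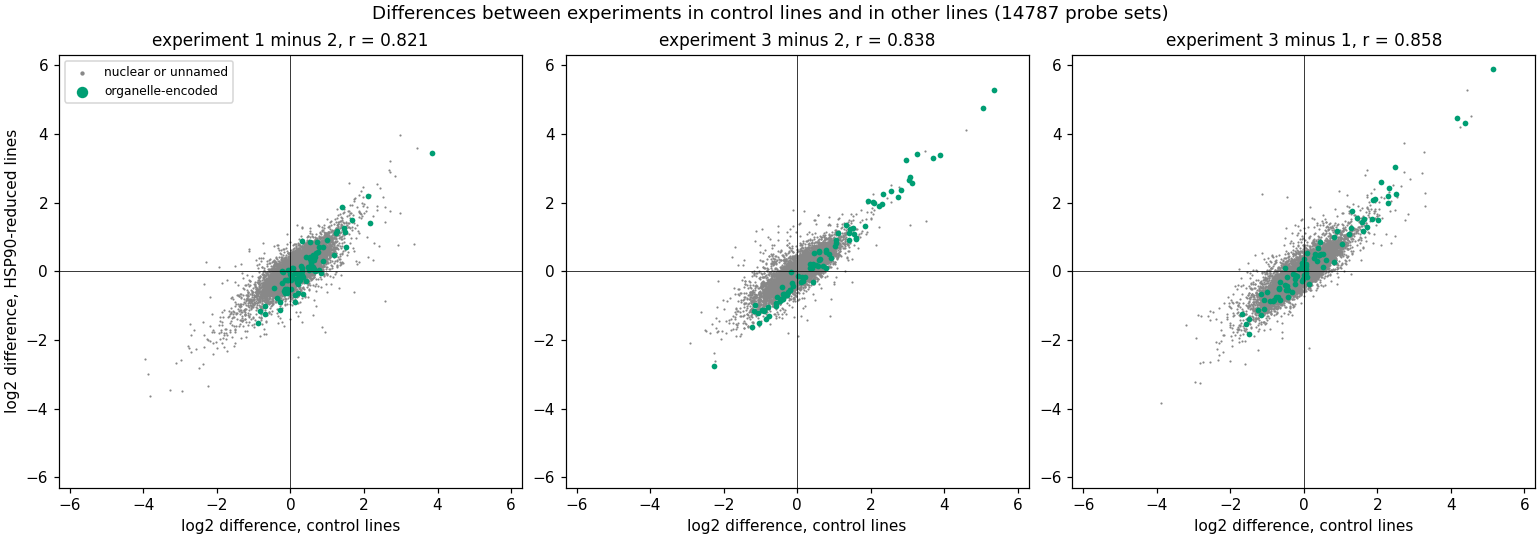
Each point is 1 of 14787 probe sets, with its log2 difference between experiments in the control lines on the horizontal axis and in the HSP90-reduced lines on the vertical axis, and organelle-encoded probe sets in green. The points follow the diagonal in all 3 comparisons, with correlations of 0.821, 0.838 and 0.858.

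The largest increases in Col-0 were in organelle transcripts. Of the 10 largest increases of named genes in Col-0 against experiment 2, 9 were chloroplast-encoded and 1 mitochondria-encoded. ndhF, a subunit of the chloroplast NADH dehydrogenase-like complex, had signals of 2070, 3000 and 2970 in Col-0, of 84.7 and 38.9 in Control-2, and of 19.3 to 115 with a median of 51.2 in the samples of experiment 2. Its log2 difference in Col-0 was 5.36 ± 0.39 (SE; limma adjusted p = 1.39e-05), with no overlap between the groups. psbB, which encodes the CP47 antenna of photosystem II, stood at 35500, 29800 and 25800 in Col-0, 1740 and 1580 in Control-2, and 449 to 1920 in experiment 2, where the median was 864. That was a difference of 5.07 ± 0.42 (limma adjusted p = 2.74e-05). In the other lines psbB had means of 22790 to 25060 in experiment 3, 866.9 and 1665 in experiment 1, and 730.3 to 1515 in experiment 2.

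psaA, a reaction centre protein of photosystem I, followed another pattern. Its signal was 8120 and 9960 in Control-2 and 10100, 9720 and 8350 in Col-0, against 275 to 1490 (median 574) in experiment 2. The differences were 3.84 ± 0.34 and 3.90 ± 0.30 (limma adjusted p = 5.23e-05 and 1.73e-05), and Col-0 and Control-2 differed by 0.06 (limma adjusted p = 0.923). Experiment 2 was thus the low one for psaA, and experiment 3 the high one for psbB and ndhF. petN, a small subunit of the cytochrome b6f complex, was 9130, 7850 and 7430 in Col-0 and did not overlap its 267 to 1360 in experiment 2 or its 342 and 407 in Control-2 (3.7 ± 0.44 and 4.38 ± 0.57, limma adjusted p = 0.000186 and 0.000398).

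Neighbouring genes of one chloroplast transcription unit gave different values. psbD and psbC overlap in the genome and encode the D2 protein and the CP43 antenna of photosystem II. psbD was 12900 to 14600 in Col-0 and 853 to 3160 in experiment 2 (3.06, limma adjusted p = 5.38e-05), whereas psbC was 1620 to 4050 in Col-0 and 12100 to 17300 in experiment 2 (-2.27, limma adjusted p = 0.000156). In the psbB unit the log2 differences of Col-0 from experiment 2 ran 5.07 for psbB, 2.82 for psbT, 0.79 for psbH, 0.03 for petB and 2.1 for petD, with psbN, which lies between them, at 1.85. petB was not called, with 15900 to 19300 in all 11 samples. psaB, which follows psaA, was lower in Col-0 (8660 to 14300 against 18500 to 25000, -0.95, limma adjusted p = 0.00109) although psaA was higher.

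**Figure D3:**
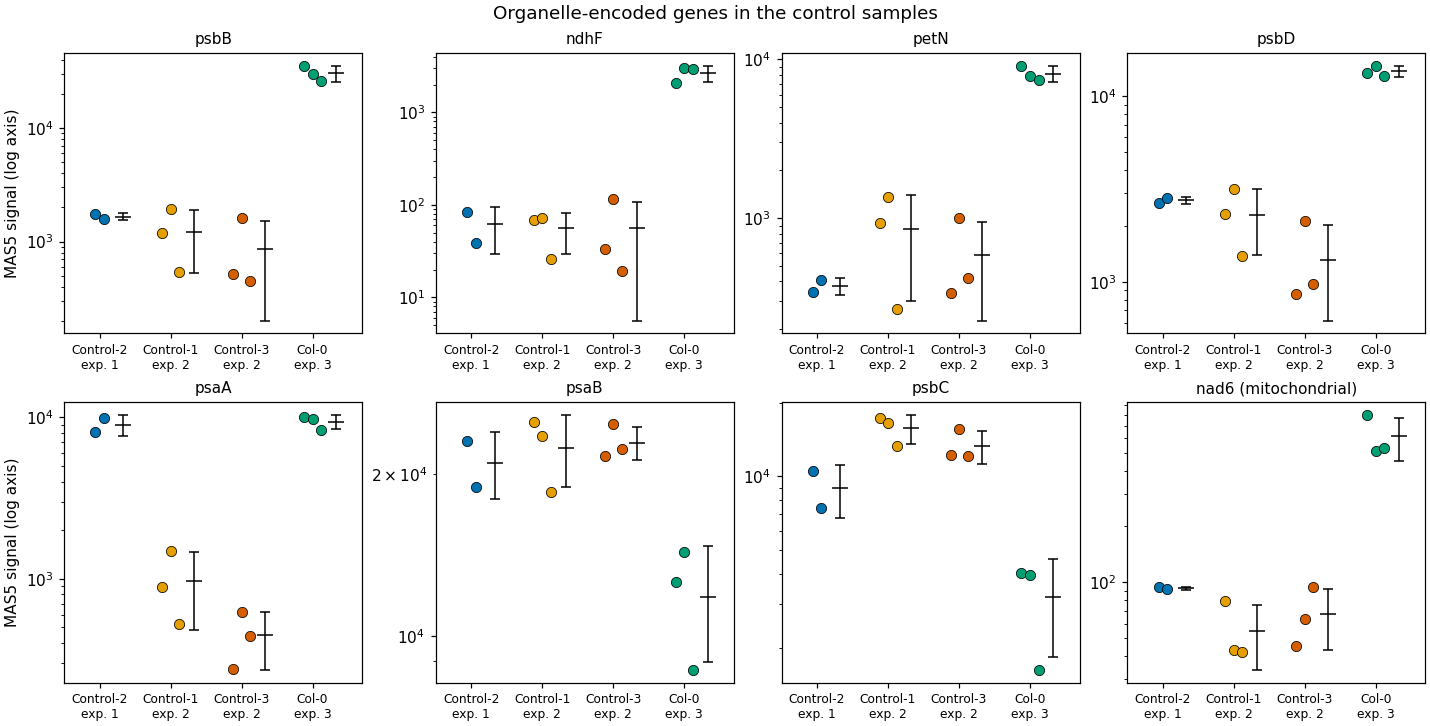
MAS5 signals (log axis) of 7 chloroplast genes and mitochondrial nad6 in each of the 11 control samples, with the mean and SD of each line as a dash and bar. psbB, ndhF, petN, psbD and nad6 were high in Col-0 alone, psaA was low in experiment 2 alone, and psaB and psbC were lowest in Col-0.

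Over the whole chloroplast set, all 69 probe sets passed the filter. In Control-2 against experiment 2, 17 were called higher, a share near the 21.2% of all tested probe sets, and 0 lower (against 11.8%), with a median of 0.26. The other lines gave 15 higher and 10 lower for the same set, with a median of -0.06. In Col-0 against experiment 2, 30 were higher and 13 lower (against 24.4% and 16.3% of all tested), and the other lines gave 27 and 27. In Col-0 against Control-2, 15 were higher and 16 lower (against 14.2% and 16.5%). By product, 11 of the 15 photosystem II genes were higher in Col-0 than in experiment 2 and 1 was lower. Of the 15 ribosomal protein genes, 3 were higher and 4 lower, near the shares of all probe sets, where the other lines gave 3 and 10. Of the 6 ATP synthase genes 2 were higher and 3 lower. atpI and atpH, which encode membrane subunits of that enzyme, differed by 3.12 and -1.06. rpoB, the beta subunit of the chloroplast RNA polymerase, was 466 to 750 in Col-0 and 27.7 to 79.2 in experiment 2 (3.25, limma adjusted p = 3e-05), while rpoC2, another subunit of that enzyme, differed by -1.05. Among the other lines, 43 of the 43 chloroplast probe sets called in Col-0 against experiment 2 had the same sign and 39 were also called.

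Mitochondria-encoded transcripts rose in Col-0 as well. Of 23 mitochondrial probe sets on the array, 15 passed the filter. Of these 15 tested, 10 were called higher and 1 lower than in experiment 2, with a median of 1.12, where 24.4% of all tested probe sets were higher. In Control-2, 2 were higher and 1 lower, no more than the 21.2% of all tested that were higher there. nad6 and nad5, subunits of respiratory complex I, differed by 3.04 and 2.74. nad6 was 797, 510 and 530 in Col-0 against 41.9 to 93.9 in experiment 2 and 94.2 and 91.9 in Control-2. The 5 probe sets of nad1 gave 0.50 to 2.3, so the size of the change differed along that gene. The filter used the mean over all control lines, so a dim probe set could pass through its level in Col-0. Outside Col-0, line means were 56.54 to 77.56 for cox2 and 45.46 to 76.81 for a probe set of nad1, below the filter signal of 89.1. Those of nad6 were 54.81, 67.56 and 93.02. The count of higher mitochondrial probe sets carries this limit, and a filter without Col-0 was not tested for them.

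Organelle transcripts also varied among samples of one experiment. In the 6 samples of experiment 2, the ratio of the highest to the lowest signal had a median of 2.23 for chloroplast and 2.24 for mitochondrial probe sets, against 1.33 over all those tested. Control-1 replicate 2 was the highest of the 6 for 42 of the 69 chloroplast probe sets, and Control-1 replicate 3 the lowest for 35. Control-3 replicate 2 was the highest for 12. The mean log2 signal of the chloroplast set was 11.47, 11.74 and 10.75 in replicates 1 to 3 of Control-1. In Control-3 it was 10.86, 11.57 and 10.91, so replicate 2 was the highest in both lines. psbA, the D1 protein of photosystem II, spanned 2640 to 19800 in experiment 2 and 3920 to 22200 in Col-0, and was not called (0.43, limma adjusted p = 0.636). The 25S ribosomal RNA probe set, another transcript without a poly(A) tail, read 208 to 222 in experiment 1, 28 to 271 in experiment 2 and 116 to 1450 in experiment 3. Its part in the organelle differences was not tested.

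The 4 tested members of the list of light-harvesting and Rubisco genes (24 listed), the relatives LHCB4.1, LHCB4.2 and LHCB4.3 and RCA, all fell in Control-2 against experiment 2, where 11.8% of all tested probe sets fell, with a median of -0.88 against 0.10. Against Col-0, Control-2 was lower for LHCB4.1 and LHCB4.2 only, while LHCB4.3 and RCA were not called (limma adjusted p = 0.0791 and 0.0575). Under quantile normalization 3 of the 4 remained called lower. LHCB4.2, which encodes the CP29 antenna of photosystem II, was 5970 and 5620 in Control-2, 13200 to 14700 (median 13800) in experiment 2 and 19100, 22200 and 18300 in Col-0. These 3 levels did not overlap, and the differences from experiment 2 were -1.25 ± 0.10 and 0.53 ± 0.08 (limma adjusted p = 2.6e-05 and 0.000931). LHCB4.3, a relative of LHCB4.2, was instead highest in experiment 2 (1360 to 1940, against 501 and 625 in Control-2 and 576 to 967 in Col-0). LHCB4.1 was 21600 and 19800 in Control-2 and 28300 to 30600 in the other control samples. RCA, the activase of Rubisco, was 18900 and 15800 in Control-2 against 22300 to 24300 in experiment 2 (-0.42, limma adjusted p = 0.0147), a call lost under quantile normalization and without Control-2 replicate 2 (-0.29).

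GIGANTEA (GI), a clock component whose transcript peaks toward evening, was also low in experiment 1. Its signal was 444 and 730 in Control-2, 1660 to 1970 (median 1760) in experiment 2 and 1890, 1490 and 2310 in Col-0. The log2 difference of Control-2 from experiment 2 was -1.62 ± 0.19 (limma adjusted p = 0.000243), and RNAi-A1 and RNAi-A3 of the same experiment had means of 490.5 and 662.9. GI was the only tested gene of the clock lists, so no statement on the clock as a whole can be drawn.

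The largest fall in Control-2 was in AT4G10270, a wound-responsive family protein that rises in low oxygen. Its signals were 9.06 and 29.8 in Control-2, 422 to 615 (median 527) in experiment 2 and 131, 149 and 269 in Col-0. The difference was -3.96 ± 0.27 for Control-2 and -1.47 ± 0.23 for Col-0 (limma adjusted p = 1.37e-05 and 0.000846). Means in other lines were 69.6 and 106.1 in experiment 1 but 104.7 to 558.3 in experiment 3, so experiment 3 was not uniform for this gene. AT5G20790 was 41.4 and 21.1 in Control-2 against 475 to 781 in experiment 2 (-3.88) and 722, 379 and 299 in Col-0. PGM, a phosphoglycerate mutase family gene, was 10.2 and 18.5 in Control-2 against 83.6 to 191 (-2.36). AT3G25790, a GARP transcription factor of the HRS1 family, was lower in both other experiments than in experiment 2, at 58 and 26 in Control-2 and 6.16 to 54.4 in Col-0 against 194 to 275 (-2.12 and -2.36). Its relative AT1G68670, on the list of nitrate-responsive genes, changed by -0.44 and -0.32, calls lost without Control-2 replicate 1 (-0.25), without Col-0 replicate 1 (-0.28) and without Col-0 replicate 2 (-0.32).

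Among the largest rises in Control-2 was AT1G52000. This gene, a jacalin-related lectin, was 2300 and 1260 in Control-2, 223 to 269 in experiment 2 and 780, 977 and 728 in Col-0 (2.70 ± 0.19 and 1.66 ± 0.17, limma adjusted p = 1.62e-05 and 6.98e-05). The 3 experiments did not overlap for this lectin. AT2G38240, an oxidase that inactivates jasmonate, was 691 and 472 in Control-2 and 31.6 to 93.1 in experiment 2 (2.92, limma adjusted p = 0.00079), but its difference of 0.77 in the other lines was not called. AT3G28220, a protein with a TRAF-like domain, was 3950 and 2250 against 436 to 758 (2.44). The conjugating enzyme gene WES1 (GH3.5), which inactivates auxin, was 598 and 840 in Control-2 and 426 to 639 in Col-0 against 283 to 388 (1.17 and 0.83).

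Of the 10 largest rises in Control-2, 5 were read by one of several probe sets of a gene. For these 5 genes (AT2G07360, AT1G31690, AT1G60200, SIZ1 and AT2G43160) a second probe set was tested, and it was the brighter one, with differences of -0.18 to 0.61. SIZ1, a SUMO ligase, read 216 and 435 in Control-2 and 8.02 to 83.3 in experiment 2 on the dimmer set (2.36), but 1220 and 1230 against 604 to 895 on the brighter (0.61). AT1G31690, a copper amine oxidase, differed by 2.72 on the dimmer and by 0.50 on the brighter set, and AT2G43160, an epsin-like protein of vesicle traffic, by 2.34 and -0.18.

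The same split was then made for other genes with more than 1 probe set, after these values were seen. For the 69 genes with 2 tested probe sets, each pair was split by mean signal over the 11 samples (median 139 for the dimmer and 585 for the brighter). In Control-2 against experiment 2, 59 of the 69 dimmer sets were called higher and 0 lower, with a median of 1.06, while of the brighter sets of the same genes 11 were higher and 5 lower, with a median of 0.02. The filter used the mean of all 4 lines, so a dim set could pass through its level in Control-2, and 51 of the 69 dimmer sets were above the filter signal in the other 3 lines. With no filter, in 140 genes, the dimmer sets had a median of 0.78 (73 called higher and 1 lower) and the brighter sets 0.13 (21 and 7). With the filter and the split both taken from the lines other than Control-2, in 54 genes, the dimmer sets had a median of 0.88 (45 and 1) and the brighter sets 0.02 (6 and 5). Genes with a single probe set and a signal of 109 to 280, the middle of the dimmer sets' range, numbered 2561, of which 727 were higher (28.4%) and 114 lower, with a median of 0.25. Under quantile normalization 47 dimmer sets were higher and 1 lower, and in the other lines 58 and 2. The genes with a single probe set did not keep their excess of rises under quantile normalization, with 286 higher, 307 lower and a median of 0.02. In the other lines they gave 677 higher and 185 lower. In Col-0 against experiment 2 the dimmer sets gave 31 higher and 3 lower and the brighter sets 17 and 9 (24.4% and 16.3% of all tested). In Col-0 against Control-2 the dimmer sets gave 2 higher and 39 lower and the brighter sets 10 and 7 (14.2% and 16.5% of all tested). Beside this, the ratio of the 3′ to the 5′ control probe set of actin was 1.2 to 1.62 in experiment 1, 3.05 to 4.23 in experiment 2 and 4.25 to 5.28 in experiment 3, and that of GAPDH was 0.759 to 0.803, 1.07 to 1.4 and 1.18 to 1.33. The part of these ratios in the results was not tested, and the rises of genes with a single dim probe set carry the same limit.

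**Figure D4:**
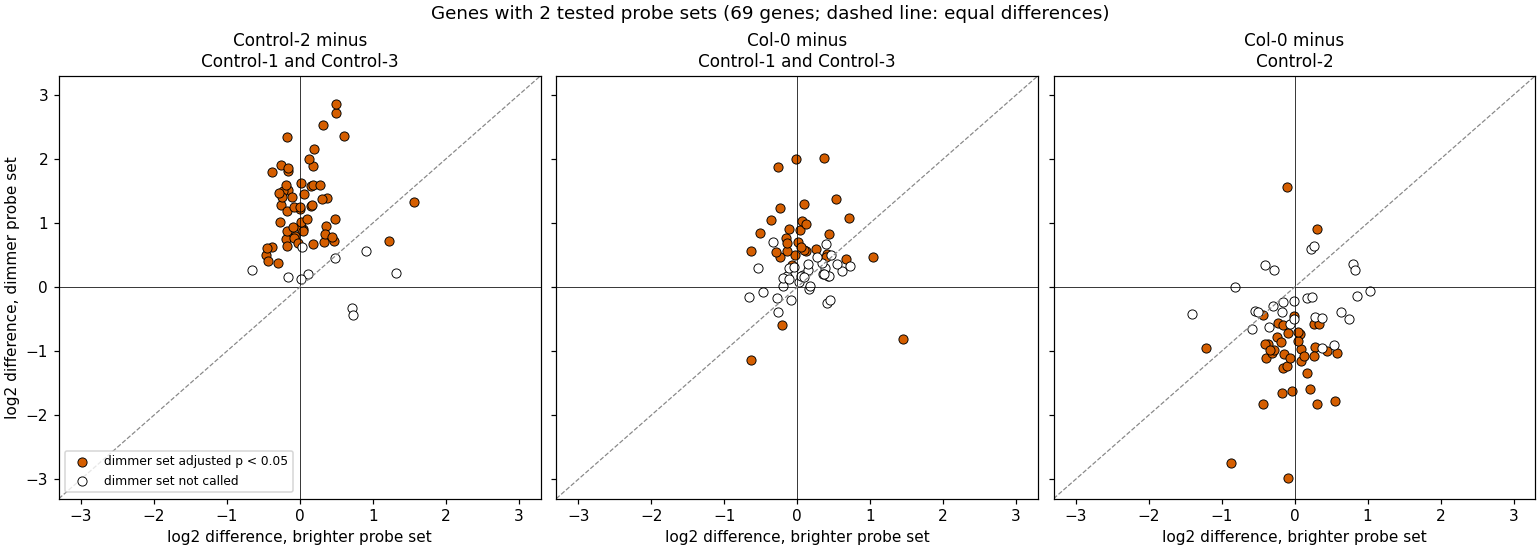
Each point is 1 of the 69 genes with 2 tested probe sets, with the log2 difference of its brighter set on the horizontal and of its dimmer set on the vertical axis, for the 3 comparisons between experiments; filled points are called for the dimmer set. In Control-2 against experiment 2 the dimmer sets lie at a median of 1.06 and the brighter ones at 0.02, while in Col-0 against Control-2 the dimmer sets lie mostly below 0 (39 lower, 2 higher).

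Cold-responsive genes were lower in experiment 3. Of 7 tested members of that list (17 listed), 6 fell in Col-0 against experiment 2 (16.3% of all tested probe sets fell) and 0 rose, with a median of -0.83 against 0.08 over all probe sets. The same counts, 6 lower and 0 higher, were found against Control-2 (16.5% of all tested were lower). COR27, a cold-induced clock regulator, was 779, 129 and 948 in Col-0, 1790 to 2250 in experiment 2 and 2070 and 2000 in Control-2. Its difference from experiment 2 was -2.05 ± 0.46 (limma adjusted p = 0.00553), with Col-0 replicate 2 the lowest. AT4G33980, its close relative, showed the same order at 269, 102 and 299 against 509 to 837 (-1.65). COR15A, a chloroplast stroma protein that protects membranes on freezing, was 2000 to 3880 in Col-0, 3600 to 4490 in experiment 2 and 7690 and 5710 in Control-2 (-0.64 and 0.73 from experiment 2). Its call in Col-0 was lost without replicate 1 (-0.52) or replicate 2 (-0.47) of Col-0, and its call in Control-2 without replicate 1 (0.51) or replicate 2 (0.94) of Control-2 or without Control-1 replicate 3 (0.68). The dehydrins COR47 and LTI30 differed by -0.67 and -0.92 in Col-0. Among the other lines 6 of the 7 were lower and 1 higher in experiment 3 than in experiment 2 (21.4% and 27.4% of all tested).

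AT5G28500, a factor of Rubisco assembly, had the smallest adjusted p of the large falls in Col-0. It read 850, 1010 and 890 in Col-0, 3080 and 2490 in Control-2 and 3730 to 4830 (median 4210) in experiment 2, in 3 separate ranges. The difference of -2.18 ± 0.11 (limma adjusted p = 1.2e-06) was -1.78 in the other lines. AT5G05250 was 171 to 251 in Col-0, 574 and 462 in Control-2 and 804 to 1380 in experiment 2 (-2.24), and AT2G04050, a MATE transporter, was 47.3 to 124 in Col-0 against 373 to 524 (-2.33). AT1G33055, which responds to low oxygen, was 15.2, 140 and 133 in Col-0 and 93.6 and 173 in Control-2 against 392 to 612 (-2.49 and -1.81), and its call in Control-2 was lost without Control-2 replicate 1 (-1.42).

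Glucosyltransferases of small molecules (UGT genes) were mostly lower where they differed. Of 28 tested, 13 fell and 1 rose in Col-0 against experiment 2, with a median of -0.39, and 8 fell and 2 rose in Control-2. Of all tested probe sets, 16.3% and 11.8% fell in these comparisons. UGT73B4 and UGT73B5, which are induced by stress, differed by -1.82 and -1.62 in Col-0. UGT76B1, a regulator of defence through salicylic acid, was 56.1, 7.23 and 38.1 in Col-0, 258 and 382 in Control-2 and 84.5 to 202 in experiment 2. It differed between Col-0 and Control-2 by -2.88 ± 0.40 (limma adjusted p = 0.000506). UGT88A1 was the 1 gene that rose in Col-0 (0.43). Families were formed from gene symbols after the values were known, and 18 had 8 or more tested members.

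Expansins and their relatives, which loosen cell walls during growth, were more often higher outside experiment 2. Of 11 tested, 7 rose and 1 fell in Control-2, and 7 rose and 1 fell in Col-0, where 21.2% and 24.4% of all tested probe sets rose, but under quantile normalization the count in Control-2 was 3 and 1. EXPB1 was 136 and 187 in Control-2, 242, 347 and 283 in Col-0 and 65.3 to 113 in experiment 2 (0.74 and 1.53). EXPA4 was 618 and 775 in Control-2 and 472 to 561 in Col-0 against 294 to 410 (0.99 and 0.56). EXPA8 went the other way in Control-2, at 470 and 748 against 863 to 1250 (-0.80), although it differed by 0.37 in the other lines. Another wall gene, AT4G18670, an extensin with leucine-rich repeats, was 1150, 1000 and 1020 in Col-0 against 175 and 208 in Control-2 and 95.2 to 279 in experiment 2 (2.56, limma adjusted p = 1.27e-05).

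**Figure D5:**
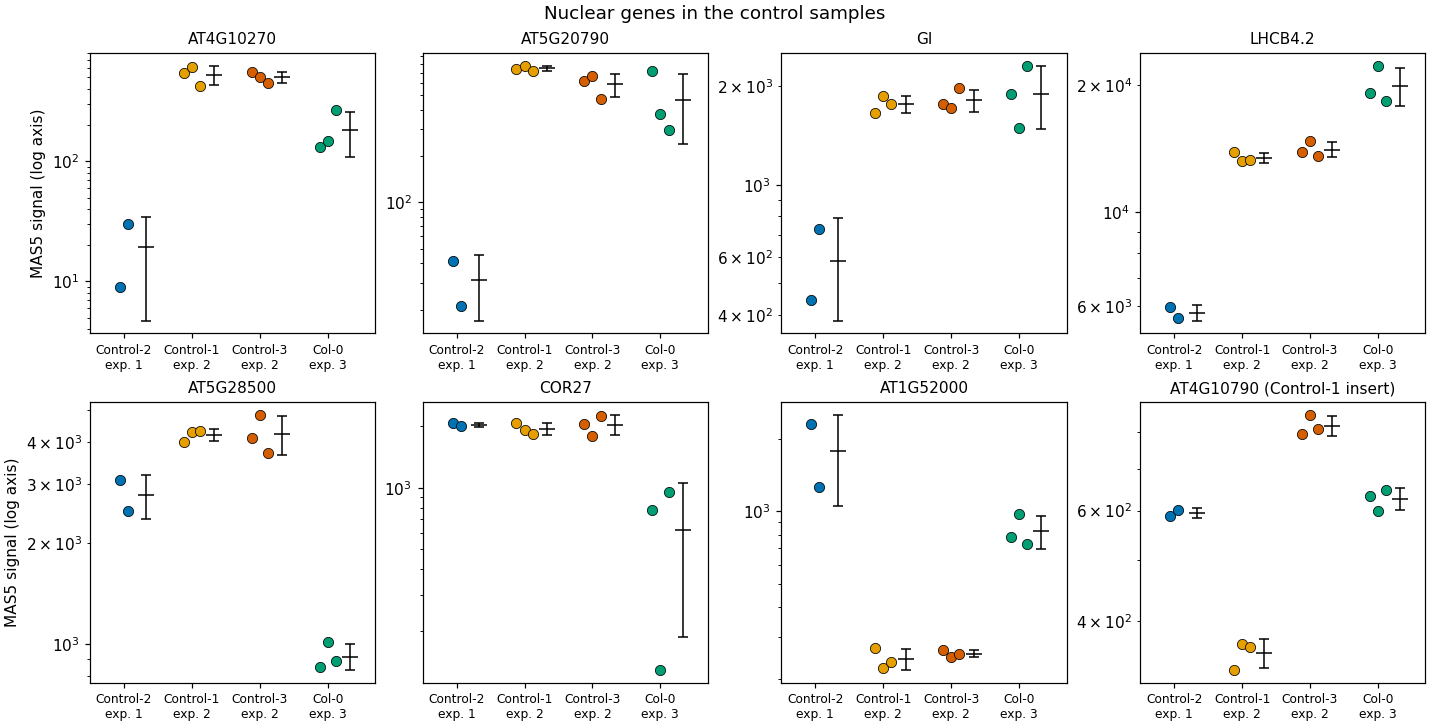
MAS5 signals (log axis) of 8 nuclear genes in each of the 11 control samples, with the mean and SD of each line as a dash and bar. AT4G10270, AT5G20790, GI and LHCB4.2 were lowest in Control-2, AT5G28500 and COR27 lowest in Col-0, AT1G52000 lowest in experiment 2, and AT4G10790 lower in Control-1 than in any other line.

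Col-0 and Control-2 were the controls of experiments 3 and 1. Osmotin OSM34, a defence and osmotic stress protein, was 723, 217 and 593 in Col-0, 61.1 and 50.4 in Control-2 and 148 to 208 in experiment 2 (2.72 ± 0.37 between Col-0 and Control-2, limma adjusted p = 0.000506). AT3G60420 ran the other way, at 213, 282 and 402 in Col-0, 2120 and 2580 in Control-2 and 421 to 683 in experiment 2 (-2.95). AT1G66760, a MATE transporter, was 183 to 241 in Col-0, 994 and 1240 in Control-2 and 264 to 291 in experiment 2 (-2.31). Its Control-2 samples were also above experiment 2 (1.91). The 10 largest increases and the 10 largest decreases of named genes between Col-0 and Control-2 had the same sign in the other lines and were called there, all 20 of them. Among all calls of that comparison, 98.4% had the same sign there and 80.9% were also called. For Col-0 against experiment 2, the other lines likewise called all 10 top rises and all 10 top falls of named genes. For Control-2 against experiment 2 they called 9 of 10 such rises and 7 of 10 such falls, against 69.5% of all its calls.

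Of heat stress genes (23 listed), 3 of 5 tested were higher in Control-2 than in experiment 2 (21.2% of all tested were) and 0 lower. In Col-0 against experiment 2, 2 were higher and 1 lower, where 24.4% and 16.3% of all tested were. The higher ones were HSA32 (0.56, limma adjusted p = 0.00443) and ATHSP22.0 (0.76, limma adjusted p = 0.0243). Under quantile normalization 1 was higher and 1 lower in Col-0. In the other lines HSA32 (0.40), ATHSP22.0 (0.41) and the lower gene, AT5G51440 (0.20, the opposite sign), were not called for experiment 3 against experiment 2. ATHSP22.0 was dim, with line means of 49.63 to 122.9. AT5G51440, a small heat shock protein of mitochondria, was 484 and 326 in Control-2, 135 to 190 in experiment 2 and 56.7, 124 and 91 in Col-0 (1.3 and -0.71, limma adjusted p = 0.00204 and 0.014), and the fall in Col-0 was not called without Col-0 replicate 1 (-0.46). AT5G48570 (ROF2), a chaperone-associated peptidyl-prolyl isomerase, was 297 and 364 in Control-2 and 122 to 175 in all other control samples (1.03). The cochaperone Fes1A was 580 and 777 in Control-2 and 399 to 488 elsewhere (0.56, or 0.35 and not called without Control-2 replicate 2).

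The gene at a mapped insert was the clearest difference between lines. AT4G10790, a UBX-domain protein, carries the Control-1 insert in its 3′ untranslated region. Its signal was 334, 368 and 364 in Control-1 and 794, 852 and 811 in Control-3 (1.17 ± 0.09, limma adjusted p = 0.000558). It was 587 and 602 in Control-2 and 634, 599 and 647 in Col-0. Means in the HSP90-reduced lines were 863 to 917.7 in experiment 2, 590.4 and 662.2 in experiment 1 and 613.1 to 711.1 in experiment 3. Control-1 was thus below every other line, and the other lines of its own experiment were above those of the other experiments. Because Control-1 supplies 3 of the 6 control samples of experiment 2, the combined comparisons of this gene (0.13, and 0.21 at the threshold with a limma adjusted p of 0.0481) mix both lines.

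At the other inserts no such pattern was seen. AT1G25570, downstream of the Control-3 insert, read 291, 260 and 257 in Control-3 and 339, 268 and 270 in Control-1 (-0.11, limma adjusted p = 0.881). It was instead 586 and 579 in Control-2 (1.02 ± 0.11, limma adjusted p = 0.000168), where RNAi-A1 and RNAi-A3 had means of 544.6 and 419.7. AT1G26330, near the Control-2 insert, was 102 and 135 in Control-2, 99.8 to 131 in Col-0 and 61 to 95.6 in experiment 2 (0.55 and 0.49), and both calls were lost under quantile normalization (0.15 and 0.26), as was the former without Control-2 replicate 2 (0.37) and the latter without Col-0 replicate 3 (0.39).

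The remaining calls between Control-3 and Control-1 were near the threshold. AT3G02480, a late embryogenesis abundant protein induced by abscisic acid and drying, was 910, 956 and 1010 in Control-3 and 164, 151 and 104 in Control-1 (2.67 ± 0.36, limma adjusted p = 0.0447). It was 114 and 125 in Control-2 and 209, 489 and 123 in Col-0, and its line means among HSP90-reduced lines reached from 127.9 to 1151, so it varied from line to line in every experiment but the first. AT4G01700, of the chitinase family, was 66.4, 74.6 and 63.7 in Control-3 and 133, 126 and 129 in Control-1 (-0.79, limma adjusted p = 0.0447). The last of the 4 has no gene name here and differed by -0.78. The calls of AT3G02480 and AT4G01700 were both lost on leaving out any 1 sample of Control-1, Control-2 or Control-3 (2.49 to 2.78 and -0.84 to -0.75), and AT4G01700 was also lost without Col-0 replicate 3 (-0.79). Both were also lost with no filter (limma adjusted p = 0.121 and 0.0893), when 1 line above the filter signal was enough (0.0742 and 0.0637), in the fit of all lines (0.287 and 0.192) and with the replicate block (0.0812 for both). Quantile normalization left AT4G10790 as the only call.

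Some transcripts set 1 pool apart from the others of its line. AT1G04770 (SDI2), which rises when sulfate is short, was 183 in Control-2 replicate 1 but 1410 in replicate 2, against 1630 to 2030 in experiment 2 and 443, 841 and 780 in Col-0. Its difference of -1.79 in Control-2 (limma adjusted p = 0.025) rests on that replicate (-0.37 and not called without it). In the other lines, however, the same difference was -1.69 and called (limma adjusted p = 0.000177). The means of SDI2 there were 371.4 in RNAi-A1 and 739.9 in RNAi-A3, against 1265 to 1859 in experiment 2. PDF1.2, a plant defensin under jasmonate and ethylene control, was 1130, 615 and 649 in Col-0 against 1480 to 2130 in experiment 2 (-1.14, limma adjusted p = 0.00311), but the corresponding difference in the other lines was 0.88 and not called. Between Col-0 and Control-2 PDF1.2 differed by -1.13 (limma adjusted p = 0.0149). In the other lines that difference was 2.26 and called in the opposite direction (limma adjusted p = 0.00183). WRKY53, a transcription factor of senescence and defence, was 88 and 290 in Control-2, 70.1 to 167 in Col-0 and 272 to 358 in experiment 2 (-0.88, not called, and -1.46).

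Markers of green tissue were high, with LHCB4.1 and RCA at 15800 or more in every sample, and the flower marker AT5G07230 was at 3.61 to 42.2. PYK10, a beta-glucosidase known from roots, was 2530 to 4020 in all samples, although the labels name aerial tissue alone. Of the 3 tested root markers, 2 were higher in Control-2 and 3 in Col-0 than in experiment 2, against 21.2% and 24.4% of all tested probe sets. JAL33 was 654 and 854 in Control-2 and 598 to 710 in Col-0 against 411 to 547 (0.66 and 0.49), and EXPA18 148 and 148 and 109 to 143 against 37.8 to 98.4 (0.79 and 0.61, both lost under quantile normalization). The JAL33 call in Control-2 was lost without Control-2 replicate 2 (0.47), the EXPA18 calls without either Control-2 replicate (0.80 and 0.79) and without Col-0 replicate 1 (0.58) or 2 (0.54) or Control-1 replicate 2 (0.60), and the PYK10 call in Col-0 (0.24) without any 1 of 10 of the 11 samples (0.16 to 0.27). The root hair expansin EXPA7 did not pass the filter. The part of root tissue in other differences was not tested.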

How the data were processed

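RNA of 14-day-old aerial tissue was hybridised to Affymetrix ATH-1 arrays, 1 array per sample except for technical replicates. The deposited intensity values are linear. MAS5 is the tool in the submitters' processing notes, PLIER the one in the study's methods, and trimmed means per array were nearly equal. Groups were taken from the sample titles and experiments from the methods. After 64 control probe sets were left out, technical replicates were averaged as log2(signal + 16), and probe sets whose mean over the 4 lines exceeded the 35th percentile (a signal of 89.1) were tested (14787; 7959 were not). limma 3.58.1 in R 4.3.3 fitted a mean per line over the 11 samples (7 residual degrees of freedom) with empirical Bayes and Benjamini-Hochberg adjustment; Control-1 and Control-3 were averaged with equal weight. Precision is limited by how few arrays each line had. The fit was tested on simulated data. The HSP90-reduced lines were fitted separately, without 1 outlying array of RNAi-A3.

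Of the probe sets, 13513 carried 1 gene, 503 several and 8730 none in the platform annotation used here; only those with 1 gene were named. Of 394 entries in 26 gene lists, 63 had a named probe set and 51 were tested; the lists of low oxygen genes and of gene families were added after values were seen. Named genes were the 10 largest increases and decreases per comparison with no overlap between groups, the called genes within experiment 2, those at inserts, and up to 4 members per list with the smallest adjusted p. Members and lists were chosen with earlier results of these data known. The alternatives were quantile normalization, offsets, filters, a variance trend, a fit of all lines, single technical replicates, each replicate left out, the replicate number as a block, the methods' t-test (Welch) and, chosen after seeing the data, organelle probe sets left out and other filters for the genes with 2 probe sets.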

Additional observations from a re-analysis of the deposited data

Results flagged for a closer look

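Among the values of named genes and array measures checked in the 6 samples of experiment 2, 8 of 107 had 1 sample standing apart from the other 5 by Dixon's criterion, which chance alone meets in about 1 in 20. The dimmer probe set of SIZ1 read 8.02 in Control-3 replicate 2 against 47.1 to 83.3 in the others. In the same sample AT2G23680, a cold acclimation protein of the WCOR413 family, read 9.36 against 104 to 166, and AT1G66760 read 264 against 285 to 291. In Control-3 replicate 3, WES1 was high at 388 against 283 to 301, EXPA18 was low at 37.8 against 77.6 to 98.4, and EXO, a cell expansion gene that responds to sugar, was low at 1140 against 1300 to 1410. MCCA, a subunit of the enzyme that breaks down leucine, was 829 in Control-1 replicate 3 against 651 to 689. The 25S ribosomal RNA probe set was 271 in Control-1 replicate 2, the sample with the most chloroplast maxima, against 28 to 108 in the others.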

How the results depend on the processing

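The counts of the 3 comparisons between experiments stayed within 1.5 times under every alternative except the methods' t-test and the removal of a Control-2 sample. At the methods' rule the t-test gave 1603 calls for Control-2 against Control-1 and Control-3, 1990 for Col-0 against Control-1 and Control-3, 1578 for Col-0 against Control-2 and 108 for Control-3 against Control-1. After Benjamini-Hochberg it gave 2395, 3180, 2 and 0, with 4616, 5803, 3186 and 1112 at an unadjusted p below 0.05, while limma called 4869, 6006, 4550 and 4. With each replicate left out in turn, the counts ranged from 2431 to 5070, from 4662 to 6043, from 2860 to 4593 and from 1 to 23, and the F-test from 7042 to 8361. The first fell to 2641 without Control-2 replicate 1 and to 2431 without replicate 2, and the third to 2860 without replicate 1; the lone Control-2 sample is then assumed to vary like the other lines. The 4 calls between Control-3 and Control-1 became 1 under quantile normalization, 2 with an offset of 4, 7 with an offset of 64, 2 when the filter asked for 1 line above the 35th percentile and 2 with a variance trend. They rose to 23 without Col-0 replicate 1 and to 8 without Col-0 replicate 2, and fell to 2 without Control-3 replicate 2 and to 1 without any other sample of Control-1, Control-2 or Control-3.

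The replicate block gave 4601, 5850, 4287 and 1 calls, of which 4261, 5614, 4008 and 1 were shared with the fit without it. Same-numbered samples of Control-1 and Control-3 deviated together with correlations of 0.0166, 0.258 and 0.00278, and differently numbered ones with -0.182 to 0.15. Replicates 1 and 3 thus showed no pairing by number, while the value of replicate 2 was the highest of all. Whether the replicate 2 samples shared a condition was not tested. For the named genes, 2814 of 3120 values under alternatives kept direction and call, 306 kept direction only and none reversed; 106 of those 306 came from the adjusted t-test, 25 from the fit of all lines, 19 from no filter and 11 from quantile normalization. These values cover 138 pairs of gene and comparison, all called in the main fit of the same samples. A reversal was therefore unlikely in advance and a gained call impossible.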

Other observations

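Of 8 tested autophagy (ATG) genes, 6 fell and 0 rose in Col-0 against experiment 2, where 16.3% of all tested probe sets fell, with a median of -0.75. Against Control-2, 3 of the 8 were lower in Col-0 and 0 higher, with a median of -0.24 (16.5% of all tested were lower). In Control-2 against experiment 2, 2 fell, where 11.8% of all tested did. ATG8E, a ubiquitin-like protein that coats the forming autophagosome, was 501, 693 and 730 in Col-0 against 1250 to 1780 in experiment 2 and 1550 and 1200 in Control-2 (-1.14, limma adjusted p = 0.000203). ATG3, the enzyme that joins ATG8 proteins to lipid, was 664 to 831 in Col-0 and 584 to 719 in experiment 2 and was not called. In the other lines 7 of the 8 fell and 1 rose in experiment 3 against experiment 2, where 21.4% of all tested fell and 27.4% rose. The family was formed from gene symbols after the values were seen.

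Low oxygen genes, a list added after AT4G10270 had been seen, gave 3 higher and 5 lower of 11 tested in Control-2 against experiment 2, and 0 higher and 6 lower in Col-0. Of all tested probe sets, 21.2% and 11.8% were higher and lower in the former and 24.4% and 16.3% in the latter. For Control-2 the other lines gave 0 higher and 5 lower, and quantile normalization 2 and 7. AT3G27220 was 58.2 and 52.9 in Control-2, 72.7 to 103 in Col-0 and 99.8 to 141 in experiment 2 (-0.95 and -0.49), while AT1G26270 was 821 and 876, 387 to 484 and 502 to 731 (0.49 and -0.48), with the first call lost without either Control-2 replicate (0.54 and 0.45) and the second without Col-0 replicate 2 (-0.42). The difference of AT1G26270 in experiment 1 was -0.05 and not called in the other lines. In the flavonoid list, 2 of 4 tested were higher and 0 lower in Control-2, and 1 was higher and 1 lower in Col-0. DFR, an enzyme of anthocyanin synthesis, was 348 and 398 in Control-2, 207 to 357 in Col-0 and 133 to 186 in experiment 2 (1.21 and 0.71), with 0.64 (called) and 0.15 (not called) in the other lines. UF3GT was the other one higher in Control-2 (1.14), and UGT78D1, a flavonol glycosyltransferase, was lower in Col-0 (-0.60, limma adjusted p = 0.0105).

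The hsp90.2-3 mutant belongs to no experiment named in the methods. Its mean profile correlated at 0.974 with Col-0, 0.951 with Control-1, 0.951 with Control-3 and 0.943 with Control-2, and its mean psbB signal was 22940.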
